A study of Mus musculus with 12 samples.

Results

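The caudal region of wild type mouse embryos at embryonic stage E10.5 was described from 3 RNA-seq libraries, replicates 1, 2 and 3, which were the controls of a study of neural tube closure with 12 libraries in all. Members were chosen by genotype label alone, so that only the columns of the wild type libraries entered, and the mutant libraries were not used here. Each library held RNA from a pool of 4 to 7 embryos, prepared with a stranded mRNA kit that selects polyadenylated RNA. The labels do not state strain, sex, litter, somite number or the anterior limit of the dissection, nor whether the wild type embryos carried a recombinase. The spread between libraries is therefore a spread between pools, from which differences in library preparation cannot be told apart. With pooled bulk RNA a lower level cannot be told apart from fewer cells of a type or less RNA per cell.

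At this stage the tail end of the mouse embryo is still growing. Progenitors of the tail bud feed the presomitic mesoderm, which is cut into somites, and the spinal cord, whose neural tube closes at the posterior neuropore under the surface ectoderm. Beside this axis the hindlimb buds grow from lateral plate mesoderm, and primitive red cells, which carry embryonic haemoglobins, circulate through the region.

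Levels are given as TPM, a transcript abundance in which reads are divided by exon length and scaled to the same total in every library, so that genes can be compared. Values in the 3 libraries are listed in the order of replicates 1, 2 and 3, and means carry ± the SD over 3 libraries. The libraries held 34266067, 37314729 and 46464596 expected reads assigned to genes. The deposited table had 53342 genes, of which 15336 (28.8%) reached 1 TPM in all 3 libraries and are called detected below. A further 13207 had reads but stood under 1 TPM in at least 1 library, and 24799 had 0 reads in all 3. Among 21950 protein-coding genes, 12843 (58.5%) were detected. Mean levels reached 10 TPM in 10101 genes, 100 TPM in 1811 and 1000 TPM in 116. The table held 0 genes of the mitochondrial chromosome.

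Across all genes, the libraries resembled each other, with Pearson's r of log2(TPM + 1) of 0.995 for replicates 1 and 2, 0.994 for replicates 1 and 3, and 0.995 for replicates 2 and 3. These coefficients describe genes of shared libraries, and genes are not independent replicates. Replicate 3 departed from the others with gene length. Among genes of at least 5 TPM in every library, the median log2 difference of replicate 3 minus replicate 1 was 0.10 in the shortest quintile by exon length and -0.30 in the longest quintile, with -0.01, -0.10 and -0.18 between. Replicate 3 was the lowest library for 22.2% of genes in the shortest quintile and for 91.4% in the longest. The same difference for replicate 2 minus replicate 1 ran from 0.04 to -0.09. A lower value of a long gene, or a higher value of a short gene, in replicate 3 therefore moves with this shift. The part of the shift in any gene or group of genes below was not tested.

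Among protein-coding genes, the most abundant transcripts included those of primitive red cells and of the machinery of protein synthesis. Hbb-y, the embryonic epsilon-type beta globin on chromosome 7, had the highest mean, with 10863, 11772 and 14014 TPM. Eef1a1, the elongation factor that brings aminoacyl-tRNA to the ribosome, came next at 11162, 11319 and 11339.9. The globin was highest in replicate 3 and lowest in replicate 1, while Eef1a1 stayed within a narrow range. Hbb-bh1, another embryonic beta globin, stood at 7309, 7159.9 and 8554. Hba-x, the embryonic zeta-type alpha globin, was at 5477, 5498 and 5739. Of the adult alpha globins, Hba-a1 was at 3531, 3731 and 4225 and Hba-a2 at 2191, 2339.6 and 2595. The adult beta globins were far lower in every library. Hbb-bs was at 75.2, 81.5 and 120.1 and Hbb-bt at 45.8, 52.6 and 61.3. The globins resemble one another in sequence, and the labels do not state how reads common to 2 copies were assigned. The 11 globin genes together held 2.96%, 3.07% and 3.55% of TPM (3.19% ± 0.312), with replicate 3 the highest.

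**Figure D1:**
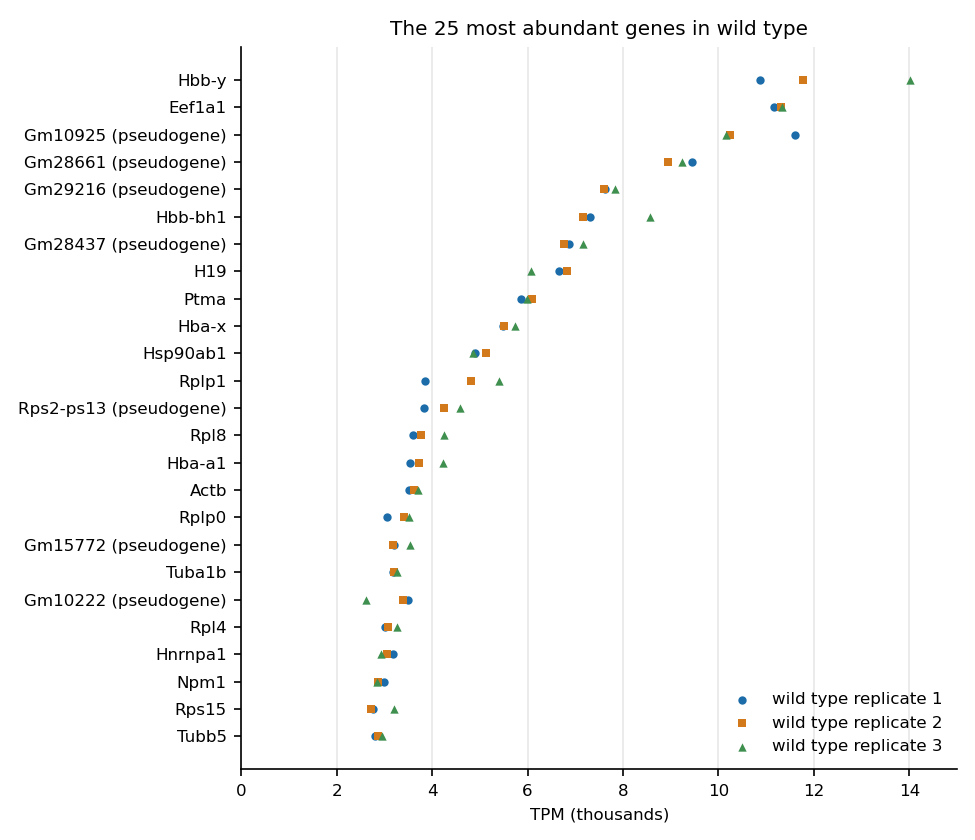
TPM, on an axis in units of 1000, of the 25 genes of highest mean level in the 3 wild type libraries (circles, squares and triangles for replicates 1, 2 and 3). Hbb-y reached 14014 TPM in replicate 3 against 10863 in replicate 1, and Eef1a1 lay between 11162 and 11340 in all 3.

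Of the 25 genes of highest mean level, 17 were protein-coding, among them 4 globins and 5 ribosomal protein genes, 7 were pseudogenes and the remaining gene was H19. The 86 cytosolic ribosomal protein genes, of which 83 were detected, held 8.68%, 9.25% and 10.4% of TPM (9.44% ± 0.859). Rplp1, an acidic stalk protein of the large subunit, was at 3856, 4820.4 and 5395 and Rpl8 at 3600.4, 3769 and 4243, both lowest in replicate 1 and highest in replicate 3. Other leading protein-coding genes varied less. Ptma, which encodes the small acidic nuclear protein prothymosin alpha, was at 5852, 6089 and 5980.5. The chaperone gene Hsp90ab1 was at 4886, 5123 and 4847. Npm1, which encodes a nucleolar protein, was at 2995, 2868 and 2832. Cytoskeletal genes were in the same range. Actb had 3518, 3614 and 3698 and Tuba1b had 3170.0, 3188 and 3269.

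A block of 7 neighbouring unprocessed pseudogenes on the minus strand of mm10 chromosome 1, between 24611535 and 24616197, held more TPM than the globins in each library. Its share was 4.31%, 4.02% and 4.03% of TPM, nearly all that the 2568 unprocessed pseudogenes of the table held together (4.24% ± 0.165). Gm10925 was at 11602, 10249 and 10148. Gm28661 was at 9455, 8942 and 9238 and Gm29216 at 7624, 7594 and 7835. Gm10925 was highest in replicate 1 and the other 2 differed little. The table held no gene of the mitochondrial chromosome to which mitochondrial reads could be assigned. Whether such reads were placed in this block was not tested, so its TPM may not be transcription of the block. Processed pseudogenes held a further 7.38% ± 0.326, with Rps2-ps13 at 3827, 4239 and 4574 and Gm15772 at 3194, 3179.6 and 3535. Of 8995 processed pseudogenes, 1046 were detected. Of the deposited count values 39.0% were not whole numbers, as where a read is divided among genes, and the levels of pseudogenes and of the genes they copy are uncertain. Protein-coding genes held 84.8% ± 0.218 of TPM and lincRNA genes 1.30% ± 0.0292. The 100 genes of highest mean level held 26.2% ± 1.03 of TPM, and 15.8% when reads were not divided by length. The 1000 highest held 56.9% ± 1.44.

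H19, the maternally expressed lincRNA next to Igf2 on chromosome 7, ranked 8 and stood at 6651, 6830.5 and 6074 TPM. The other noncoding or gene-model genes that led outside the pseudogenes were the miRNA-annotated Gm23935, at 1887, 1699 and 2555, and the lincRNA-annotated Gm10076, at 1811, 1828 and 1907. Gm23935 rested on 1099, 1105 and 2197 reads over a gene of 57 bases, so its TPM is set by few bases. The processed transcript Gm28037 stood at 1134, 1121 and 1216 and the lincRNA-annotated Gm42418 at 766, 743 and 1148. Gm23935 and Gm42418 were highest in replicate 3, whereas Gm10076 was within a narrow range.

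Imprinted genes, which are expressed from 1 parental copy and many of which set fetal growth, were a second abundant group. Of 30 in the list, 28 were detected, beside 58.5% of all protein-coding genes. After H19, Mest was highest, at 2374, 2239 and 2174. Nnat was at 843, 942 and 946. Grb10, an adaptor that restrains growth factor signalling, was at 738, 688 and 585. Mest and Grb10 were highest in replicate 1, and Nnat was lowest there. Igf2, the fetal growth factor, was at 591, 563 and 429. Cdkn1c, an inhibitor of cyclin-dependent kinases, was at 464, 475 and 498. Cdkn1c varied little, whereas Igf2 was lower in replicate 3 than in the other libraries. Dlk1 and Meg3, neighbours on chromosome 12, had means of 182 ± 14.2 and 105 ± 17.6. Ascl2 (0.404 ± 0.107) and Slc22a18 (0.609 ± 0.160) were the 2 not detected.

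Genes of cell division were abundant too: all 20 genes of DNA replication and mitosis in the list were detected, with a median level of 240.5 TPM. This count and the list counts that follow stand beside 58.5% of all protein-coding genes detected. Rrm2, a subunit of ribonucleotide reductase, was at 531, 518 and 514. Pcna, the clamp of the replication fork, was at 458, 448 and 457. Mki67, a marker of cycling cells, was at 319, 283 and 225. Pcna and Rrm2 differed little between libraries, while Mki67 was lowest in replicate 3. Of 8 genes of cell cycle exit 6 were detected, led by Cdkn1c and then Btg2 at 40.8 ± 3.64, and the exceptions were Cdkn2a (0.219 ± 0.105) and Cdkn2b (0.942 ± 0.288). All 16 commonly used reference genes were detected, from Tbp at 13.9, 14.3 and 13.3 to Eef1a1. Of 12 immediate early and stress genes, 10 were detected, with the endoplasmic reticulum chaperone Hspa5 at 806 ± 32.4, Jun at 47.7 ± 3.34, Egr1 at 3.13 ± 0.736 and Fos, at 1.79, 0.670 and 1.11, not detected.

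To describe which tissues the pools held, 33 lists of tissue markers were read, each with 3 or 4 defining markers. The lists were chosen with earlier results of these data known, so they are no independent check of the labelled tissue. In 15 lists every defining marker was detected, in 9 lists some were, and in 9 none was. Of all protein-coding genes 58.5% were detected, and each list count below is to be read beside that share. Some lists lay near or under it. At a threshold of 5 TPM the first number was 7. Lists share genes: of 512 different genes in all 43 lists, 32 stood in more than 1.

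**Figure D2:**
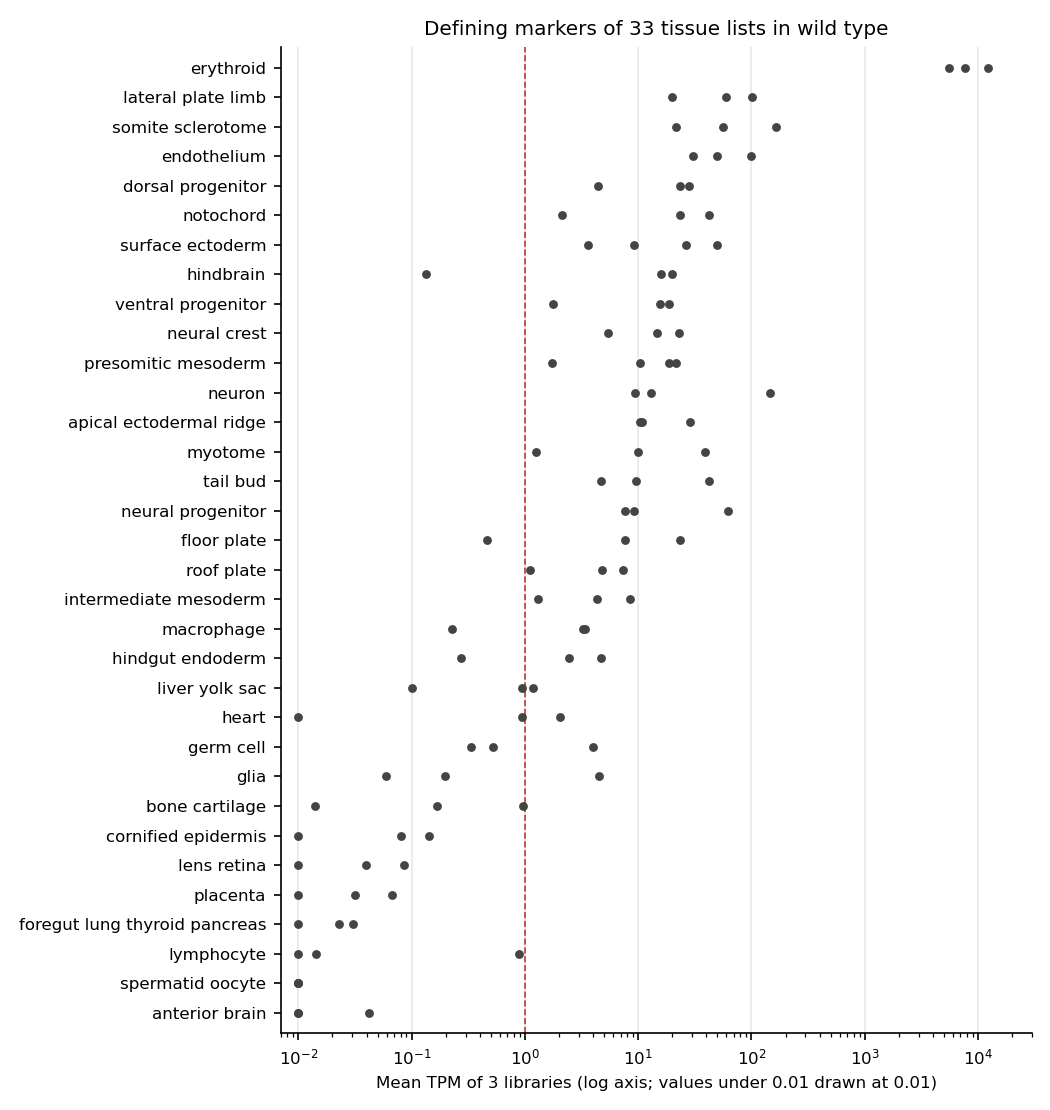
Mean TPM over 3 libraries, on a log axis, of the defining markers of each of the 33 tissue lists, with 1 point per marker and values under 0.01 drawn at 0.01. The dashed line is at 1 TPM. Every marker reached 1 TPM in all 3 libraries in 15 lists, and 9 lists have no marker detected. Single libraries are not drawn, and a mean can lie right of the line although a library was under it, as for Gdf7 and Myod1 in replicate 3.

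Growth zone genes of the tail bud were all present. Each of the 18 tail bud genes was detected, and their summed level lay between 359 and 431 TPM per library. T, the T-box factor brachyury that marks tail bud mesoderm progenitors and notochord, was at 43.1, 46.7 and 37.4. Nkx1-2, expressed where spinal cord and paraxial mesoderm share progenitors, was at 5.91, 4.92 and 3.28. Cdx2, a caudal homeobox factor, was at 11.6, 9.28 and 7.89. Both of the latter were highest in replicate 1 and lowest in replicate 3. The signalling genes of the list included Wnt5a (38.4 ± 4.73), Fgf8 (28.8 ± 3.09), Gdf11 (58.5 ± 3.48), which promotes the trunk to tail transition, and Wnt3a (5.90 ± 0.202). Cyp26a1, which clears retinoic acid from the tail bud, was at 13.3, 11.6 and 11.1.

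In the presomitic mesoderm list 12 of 13 genes were detected. Tbx6, required for paraxial mesoderm identity, stood at 22.1, 20.1 and 22.3. Msgn1, which drives cells out of the progenitor state, was at 18.2, 20.96 and 16.99. Hes7, an oscillating repressor of the segmentation clock, was at 9.95, 11.7 and 9.69. Msgn1 and Hes7 were highest in replicate 2, where Tbx6 was lowest. Lfng and Dll3, Notch modulators of the clock, had means of 33.3 ± 2.51 and 24.1 ± 3.83. Mesp2, expressed in the narrow band where the next somite boundary forms, was lower, at 2.11, 1.71 and 1.33, and Mesp1 (0.738 ± 0.181) was the gene not detected.

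Somite genes were higher, with 16 of 17 detected and summed levels of 847 to 858 TPM. Meox1, a homeobox factor of the whole somite, was at 159.7, 164 and 169. Tcf15, needed for epithelial somites, was at 50.7, 64.5 and 53.7. Twist1, of somitic and limb mesenchyme, was at 215, 239 and 238. Meox1 stayed within a narrow range, and Tcf15 was highest in replicate 2. Pax1, of the sclerotome that forms vertebrae, was at 28.3, 23.4 and 25.1. Uncx, a marker of the posterior part of each somite, was at 20.2, 21.7 and 22.5. Their ranges did not overlap, with Pax1 the higher. Of the myotome genes, which mark early muscle, 11 of 13 were detected. Myf5, the first myogenic factor of the somite, was at 9.41, 11.01 and 9.43. Myog, which drives differentiation, was at 36.1, 40.6 and 40.5. Myod1, at 1.32, 1.51 and 0.926, was under 1 TPM in replicate 3, so 2 of the 3 defining myotome markers were detected. Actc1, the actin of early striated muscle, was at 149, 152 and 159.6, alike in all 3 pools.

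Lateral plate and hindlimb genes were all detected, 20 of 20. Pitx1, the homeobox factor that gives the hindlimb its identity, was at 99.6, 107 and 98.3. Tbx4, the T-box factor of the hindlimb field, was at 64.3, 64.2 and 51.7. Tbx5, its forelimb counterpart, was at 5.52, 3.40 and 2.28. The hindlimb gene was far above the forelimb gene in each pool, and Tbx4 held 92.1%, 95.0% and 95.8% of their sum. Hand2, which sets the posterior limb margin, was at 59.8 ± 5.32 and Hand1 at 64.6 ± 12.3. Fgf10, the mesenchymal signal that keeps the limb growing, was at 10.9 ± 1.72. In the list of the apical ectodermal ridge, the epithelial rim that signals to the limb mesenchyme, 7 of 8 genes were detected. Fgf8, its main signal and also a tail bud signal, was at 30.6, 30.7 and 25.3. Sp8 was at 11.8, 11.02 and 9.25 and Sp6 at 13.5, 10.2 and 7.57. Foxf1, of visceral lateral plate, was at 25.2, 19.9 and 14.6. Sp6 and Foxf1 were highest in replicate 1 and lowest in replicate 3, while Fgf8 was alike in replicates 1 and 2.

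Neural tube genes were detected from the dorsal to the ventral midline. Each of the 13 neural progenitor genes was detected. Sox2, which keeps neural cells in the progenitor state, was at 62.6, 61.6 and 60.9. Pax6, of intermediate levels of the tube, was at 9.40, 9.81 and 8.25. Sox1 was at 7.01, 8.79 and 7.03. Sox2 was steady across pools, and Sox1 and Pax6 were highest in replicate 2. In the dorsal progenitor list 9 of 11 genes were detected. Olig3, of the dorsal-most progenitors, was at 28.6, 29.9 and 25.3. Pax3, of dorsal neural tube, crest and somite, was at 24.2, 24.4 and 21.5. Pax7 was at 4.36, 5.35 and 3.58, well below Pax3 in each library. Ventral factors were detected in 6 of 8 cases. Olig2, of motor neuron progenitors, was at 19.7, 18.8 and 17.1. Nkx6-1, of all ventral progenitors, was at 16.2, 15.7 and 15.2. Nkx2-2, of the progenitors next to the floor plate, was at 1.63, 1.80 and 1.87. Olig2 and Nkx6-1 were thus many times above Nkx2-2 in each library. At the dorsal midline, where 7 of 8 roof plate genes were detected, Lmx1a was at 4.99, 4.92 and 4.60. Gdf7 was at 1.30, 1.90 and 0.0932, under the threshold in replicate 3. At the ventral midline 6 of 7 floor plate genes were detected. Shh, the ventralising signal also made by notochord and hindgut, was at 25.6, 21.7 and 22.3. Foxa2, of floor plate and notochord, was at 7.23, 8.46 and 7.4005, under Shh in each library.

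Of 24 neuronal genes 23 were detected. Tubb3, a tubulin of postmitotic neurons, was at 117, 149.6 and 167. Elavl3, an RNA-binding protein of neurons, was at 11.7, 13.2 and 14.1. Dcx, of migrating neurons, was at 8.84, 9.78 and 9.46. Tubb3 and Elavl3 were lowest in replicate 1 and highest in replicate 3. Isl1, of motor and sensory neurons and also of hindlimb field mesoderm, was at 40.1 ± 1.89, above its paralog Isl2 at 12.8 ± 1.74. Chat, which makes the transmitter of mature motor neurons, was at 0.232, 0.491 and 0.366 and was the gene not detected, while Slc18a3, which loads that transmitter into vesicles, had 2.81 ± 1.23. Neural crest genes were detected in 12 of 14 cases. Sox10, of migrating crest, was at 22.1, 25.7 and 20.97. Erbb3, a receptor of the glial lineage of the crest, was at 16.3, 15.6 and 12.1. Foxd3, of early crest, was at 4.10, 6.78 and 5.29, the lowest of the 3 in each library. Mitf, of pigment cells, was at 1.17 ± 0.402 and was not detected in every library.

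Surface ectoderm was represented by 21 of 22 genes. Epcam, an adhesion molecule of epithelia, was at 54.4, 45.4 and 49.8. Cdh1, the epithelial cadherin, was at 31.8, 26.6 and 21.5. Trp63, which encodes the p63 factor of stratifying epithelium, was at 10.6, 9.49 and 7.72. These 3 were highest in replicate 1. The simple keratin gene Krt8 was at 165, 141 and 127. Its partner Krt18 was at 122, 95.0 and 100.8. The basal keratin gene Krt5 was at 29.0, 25.2 and 26.2 and its partner Krt14 at 2.92, 3.81 and 4.91. The simple pair was thus several times above the basal pair in each library, but pooled bulk RNA does not show in which cells. Grhl3, the grainyhead factor needed for closure of the posterior neuropore, was at 15.1, 16.2 and 13.7 and held 72.5%, 78.8% and 76.4% of the summed TPM of Grhl1, Grhl2 and Grhl3. Grhl2 was at 4.68, 3.14 and 2.995. Genes of the cornified layer, which forms later, were near 0: 1 of 10 was detected, Krt10 at 3.20, 3.45 and 4.61, while Krt1 was at 0.141 ± 0.0842, Ivl at 0.0799 ± 0.0715 and Flg at 0 reads.

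Other lineages of the region were present at lower or mixed levels. The intermediate mesoderm list, of kidney precursors, was complete, 15 of 15. Gata3, of the nephric duct, was at 9.36, 8.61 and 7.22. Pax2 was at 4.69, 4.51 and 3.74 and Pax8 at 1.03, 1.65 and 1.22. All 9 notochord genes were detected, and Noto, largely restricted to notochord, was at 1.12, 3.31 and 1.97, lowest in replicate 1. The hindgut list had 9 of 14 detected, a share near the 58.5% of all protein-coding genes. Foxa1 was at 4.96, 5.58 and 3.62. Foxa3 was at 0.192, 0.430 and 0.195, and Vil1, of mature gut epithelium, had 0.413 ± 0.127, both under 1 TPM. Of 11 germ cell genes 5 passed, with Nanos3 at 3.14, 5.597 and 3.15, while Dppa3 (0.334 ± 0.281), Pou5f1 (0.525 ± 0.299) and Ddx4 (0.321 ± 0.162) did not.

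Endothelium was well represented, with 18 of 19 genes detected. Cdh5, the cadherin of endothelial junctions, was at 107, 106 and 86.5. Kdr, the main VEGF receptor, was at 55.1, 51.9 and 42.1. Pecam1 was at 32.7, 30.3 and 27.8. All 3 were lowest in replicate 3, and Lyve1 (1.21 ± 0.325) did not pass. Red cell genes other than globins included Slc4a1, the anion exchanger of the red cell membrane, at 106 ± 14.9, Alas2, the first enzyme of haem synthesis in red cells, at 98.0 ± 2.06, and Klf1 at 21.5 ± 0.801, and all 15 genes of the list found in the table were detected. Macrophage genes were low, with 10 of 13 detected. C1qb, a complement subunit, was at 5.49, 6.31 and 8.83. Csf1r, the receptor that macrophages need, was at 2.59, 3.50 and 4.17. Cx3cr1 was at 3.61, 2.80 and 3.35. The pan-leukocyte gene Ptprc, at 0.192, 0.296 and 0.199, was under 1 TPM in each library. None of 9 lymphocyte genes was detected, and 5 of them had 0 reads.

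Tissues of the head and of the trunk organs were mostly at or near 0 by their defining markers, with the hindbrain list as an exception. Of the forebrain and midbrain genes Otx2, Six3 and Six6 had 0 reads in all 3 libraries. The anterior list nevertheless held 2 detected genes of 12: Lhx2, which also stands in the limb list, at 30.5, 30.5 and 27.8, and Hesx1 at 1.10, 1.52 and 1.17. In the hindbrain list, which holds several Hox genes, 6 of 7 genes were detected. Hoxb1 was at 19.4, 21.3 and 18.95, whereas Egr2, which marks alternating segments of the hindbrain, was at 0.173, 0.155 and 0.0780. Hoxb1 is known from the tail end as well. Heart genes were low, with 5 of 13 detected. Tnnt2 was at 4.14, 6.12 and 5.52 and the atrial light chain gene Myl7 at 1.92, 2.65 and 1.503. Nppa, a hormone gene of the heart, had 0 reads. In the liver and yolk sac list 3 of 12 genes were detected, led by Rbp4 at 8.27, 5.10 and 7.45, with Afp at 1.87, 0.818 and 0.822 and Alb at 0.1002 ± 0.109. Afp and Apoa1 (1.67, 0.709 and 0.478) were highest in replicate 1 and under 1 TPM in the others.

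Of the placental genes, 1 of 8 was detected, the X-linked Plac1 at 12.2, 8.68 and 9.76, while Tpbpa had 0 reads. The 9 genes of foregut, lung, thyroid and pancreas included 2 detected, Sox2 and Nkx2-3 (7.42 ± 1.61), and Nkx2-1 and Pdx1 were at 0.0230 ± 0.0398 and 0.0302 ± 0.0524. In the lens and retina list the gene detected was Pax6, which the neural tube list also holds. Col2a1, the collagen of cartilage and of notochord sheath, was at 103, 109 and 99.6, although Acan (0.168 ± 0.0261) and Col10a1 (0.0141 ± 0.0245), of maturing cartilage, were near 0. Similarly, glial genes split: Slc1a3 (15.7 ± 2.17) and Mbp (4.49 ± 0.600) were detected, but Aqp4 (0.199 ± 0.0512) and Gfap (0.0593 ± 0.0461) were not. Genes of spermatids and oocytes were detected in 0 of 8 cases, and 6 had 0 reads. In all, 23 marker genes had 0 reads in every library. A count of 0 allows up to 3 reads per library, which corresponds to between 0.0156 TPM for Flg and 0.672 TPM for Tnp1 in the library where a read weighs most, and this covers counting error only.

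All 39 Hox genes were detected. These homeobox factors are ordered along 4 clusters, and the higher the paralog group, the further back along the axis its expression begins. Groups 9 and 10 led, with summed levels of 355.6, 350.5 and 354.4 TPM for group 9 and 415, 429.6 and 427 TPM for group 10. Together they held 39.7% ± 1.28 of all Hox TPM, against 18.6% ± 0.514 for groups 1 to 4, 28.2% ± 1.17 for groups 5 to 8 and 13.6% ± 0.418 for groups 11 to 13. The drop came after group 10, with group 11 at 134.7 ± 5.50 TPM, group 12 at 47.7 ± 3.57 and group 13 at 83.9 ± 1.55.

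Single genes carried much of this pattern. Hoxc10 was highest, at 207, 222 and 221. Hoxb9 followed at 146, 143 and 144. Hoxa10 was at 106, 115 and 113 and Hoxd10 at 102, 92.4 and 93.4. The ranges of these 4 did not overlap. Group 13 is expressed at the very end of the axis and in the distal limb. Hoxd13 was at 52.9, 48.8 and 50.2. Hoxa13 was at 16.5, 15.1 and 13.03 and Hoxc13 at 10.2, 12.9 and 11.7. Hoxb13 was at 5.77, 7.19 and 7.45. Hoxd13 thus held most of the group's signal in each library. The anterior Hox genes were not absent: Hoxd4 was at 69.9 ± 6.57 and Hoxb3 at 51.2 ± 4.39. The annotated spans of Hoxd4 and Hoxd3 overlap, as do those of Hoxc10 and Hoxc5. How reads common to such genes were assigned is not stated in the labels. Group 6 showed the widest spread between libraries, at 218.6, 220.3 and 168.6 TPM, with replicate 3 the lowest.

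**Figure D3:**
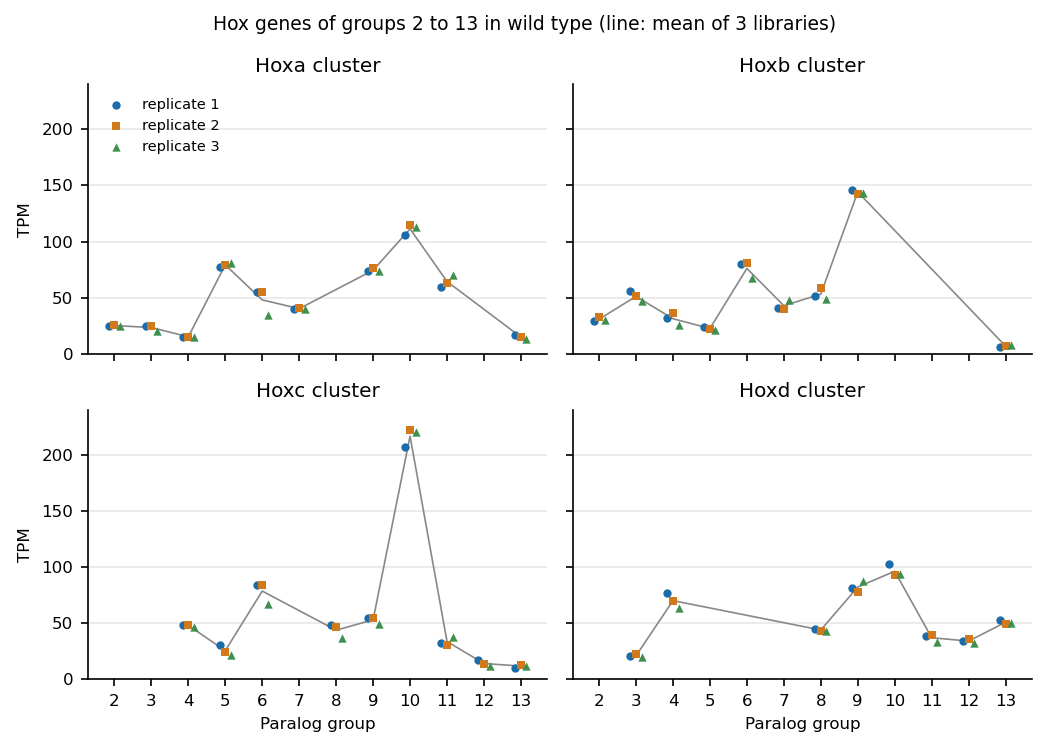
TPM of the Hox genes of paralog groups 2 to 13 in the 4 clusters, with 1 point per library and a line through the means. Hoxc10 (207, 222 and 221 TPM) and Hoxb9 (146, 143 and 144 TPM) stand highest, and the line falls from group 10 to group 13 in the Hoxa and Hoxc clusters.

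For 89 gene families the question was which paralog held most of the family's transcripts. A paralog was called dominant where it held at least 50% of the family's summed TPM in every library, which held in 58 families and failed in 31. In a family of 2 the higher paralog passes almost by construction, and all 23 such families passed. Among the 66 families of 3 or more members 35 passed. In 15 families the top paralog held at least 90% in every library, and in 13 the ranges of the top and the second paralog overlapped. Such an overlap is between libraries, and the top paralog could still be the higher within each library.

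Housekeeping and metabolic families were often carried by 1 gene. Eef1a1 was at 11274 ± 97.0 against 0.0280 ± 0.0485 for Eef1a2, the isoform of adult muscle and neurons. Aldoa (783 ± 7.20) stood above Aldoc (2.81 ± 0.743), Pkm (1732 ± 13.8) above Pklr (16.8 ± 2.21), Ldha (1082 ± 49.4) above Ldhb (247 ± 30.3) and the glucose transporter Slc2a1 (279.8 ± 25.8) above Slc2a3 (83.6 ± 16.7). In each of these families the top gene was above the second in every library. Cell cycle families differed: Cdk4 (902 ± 34.2) far exceeded Cdk6 (13.5 ± 1.22) and Ccna2 (233 ± 17.03) exceeded Ccna1 (1.54 ± 0.373). In contrast, Ccnb2 (182, 182 and 201) and Ccnb1 (193, 186 and 179) overlapped and changed order between libraries. The ranges of Ccnd2 and Ccnd1 overlapped too, but Ccnd2 was the higher within each library. Chromatin families had a leading paralog in Smarca4 (227 ± 23.1) over Smarca2 (9.18 ± 0.971), Ezh2 (126 ± 4.59) over Ezh1 (10.8 ± 0.682) and Dnmt1 (231 ± 20.4) over Dnmt3a (53.5 ± 4.18). Others had none: the histone deacetylase genes Hdac2 (217, 202 and 198) and Hdac1 (200.4, 199 and 200.1) overlapped, and Hmgb2 held 37.8% of the TPM of its family on average. Of the lamins, Lmnb1 was at 591 ± 32.0, Lmnb2 at 93.5 ± 4.55 and Lmna, which rises in differentiated tissue, at 5.98 ± 0.783.

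Among genes linked to neural tube closure, beta-catenin itself, Ctnnb1, which serves both cadherin junctions and canonical Wnt signalling, was at 849, 837 and 748. Its junctional relative Jup, plakoglobin, was at 19.2, 17.1 and 16.01. Ctnnb1 held 97.8% to 98.0% of their sum. Vangl2, a core planar cell polarity protein, was at 67.9, 68.2 and 59.0. Vangl1 was at 12.3, 11.9 and 9.41, which left Vangl2 a share of 84.7% to 86.2%. Both leading genes were therefore far above their paralogs in each pool. Emg1, a methyltransferase of the small ribosomal subunit and the third gene that the study mutates, was named here after its values were seen and stood at 70.3, 70.9 and 80.5. Planar polarity partners were less one-sided: Celsr1 and Celsr2 overlapped, at 22.3, 23.7 and 16.4 and at 22.5, 22.5 and 17.3. Dvl3 (51.6, 49.9 and 34.4) overlapped in range with Dvl1 (35.1, 32.5 and 32.6), although Dvl3 was the higher within each library. Prickle1 (37.1 ± 3.42) exceeded Prickle3 (6.91 ± 0.915). The folate receptor Folr1 was at 0.426, 0.458 and 0.541 and Folr2 at 0.0658 ± 0.0859, so that this family was dominated by a gene that did not itself reach 1 TPM. Lin28a (137, 123 and 105), an RNA-binding repressor of let-7 maturation, exceeded Lin28b (61.5, 52.3 and 44.4).

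Signalling families spread over more members. Of 19 Wnt genes, Wnt5a (42.3, 39.8 and 33.1) and Wnt2 (40.1, 38.7 and 28.3) overlapped in range. Wnt5a was above Wnt2 within each library and held 17.8% of the family's TPM on average. Fzd2 led the 10 frizzled receptors at 140.2, 144 and 133, a mean share of 32.0%, ahead of Fzd7 at 97.0, 93.9 and 78.0. The nuclear partners of beta-catenin were led by Tcf7 (64.0 ± 8.08) and Tcf7l1 (49.99 ± 4.24). Bmp4 (91.0, 83.0 and 77.4) held more than the other 6 Bmp ligands of its family together in each library. Of the Notch receptors Notch3 (61.9 ± 9.87) led Notch2 (38.8 ± 8.14). The ligands Dll1 (34.5 ± 2.25) and Jag1 (30.2 ± 2.79) overlapped between libraries, with Dll1 the higher within each. For retinoic acid, Aldh1a2, the synthetic enzyme of the trunk mesoderm, was at 166, 142 and 134 and held at least 97.8% of the TPM of its family of 3 in each library. The degrading enzymes Cyp26b1 (16.6 ± 0.509) and Cyp26a1 (12.01 ± 1.16) were closer to each other. Igf2 (528 ± 87.0) exceeded Igf1 (15.1 ± 0.0728), and their receptor Igf1r was at 38.3, 34.9 and 27.3, lowest in replicate 3.

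Transcription factor families with a clear leader included Twist1 over Twist2 (27.2 ± 0.906), Msx1 (94.1 ± 4.22) over Msx3 (21.1 ± 1.21), Sox2 over Sox3 (20.6 ± 0.539), and Trp53 (186 ± 4.56) over Trp63. The caudal factors had none: Cdx2 was at 11.6, 9.28 and 7.89 and Cdx4 at 11.2, 9.65 and 7.88. The neural factors Sox11 (184, 162 and 154) and Sox4 (179, 160.2 and 142) overlapped in range as well, with Sox11 slightly the higher within each library. In 4 families the top gene changed when a library was left out: Cdx4 and Dlx3 led without replicate 1, Celsr2 without replicate 2 and Ccnb1 without replicate 3. Without division by length, 13 families had another top gene, among them Crabp2 in place of Crabp1, Hmga2 in place of Hmga1 and Lef1 in place of Tcf7.

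**Figure D4:**
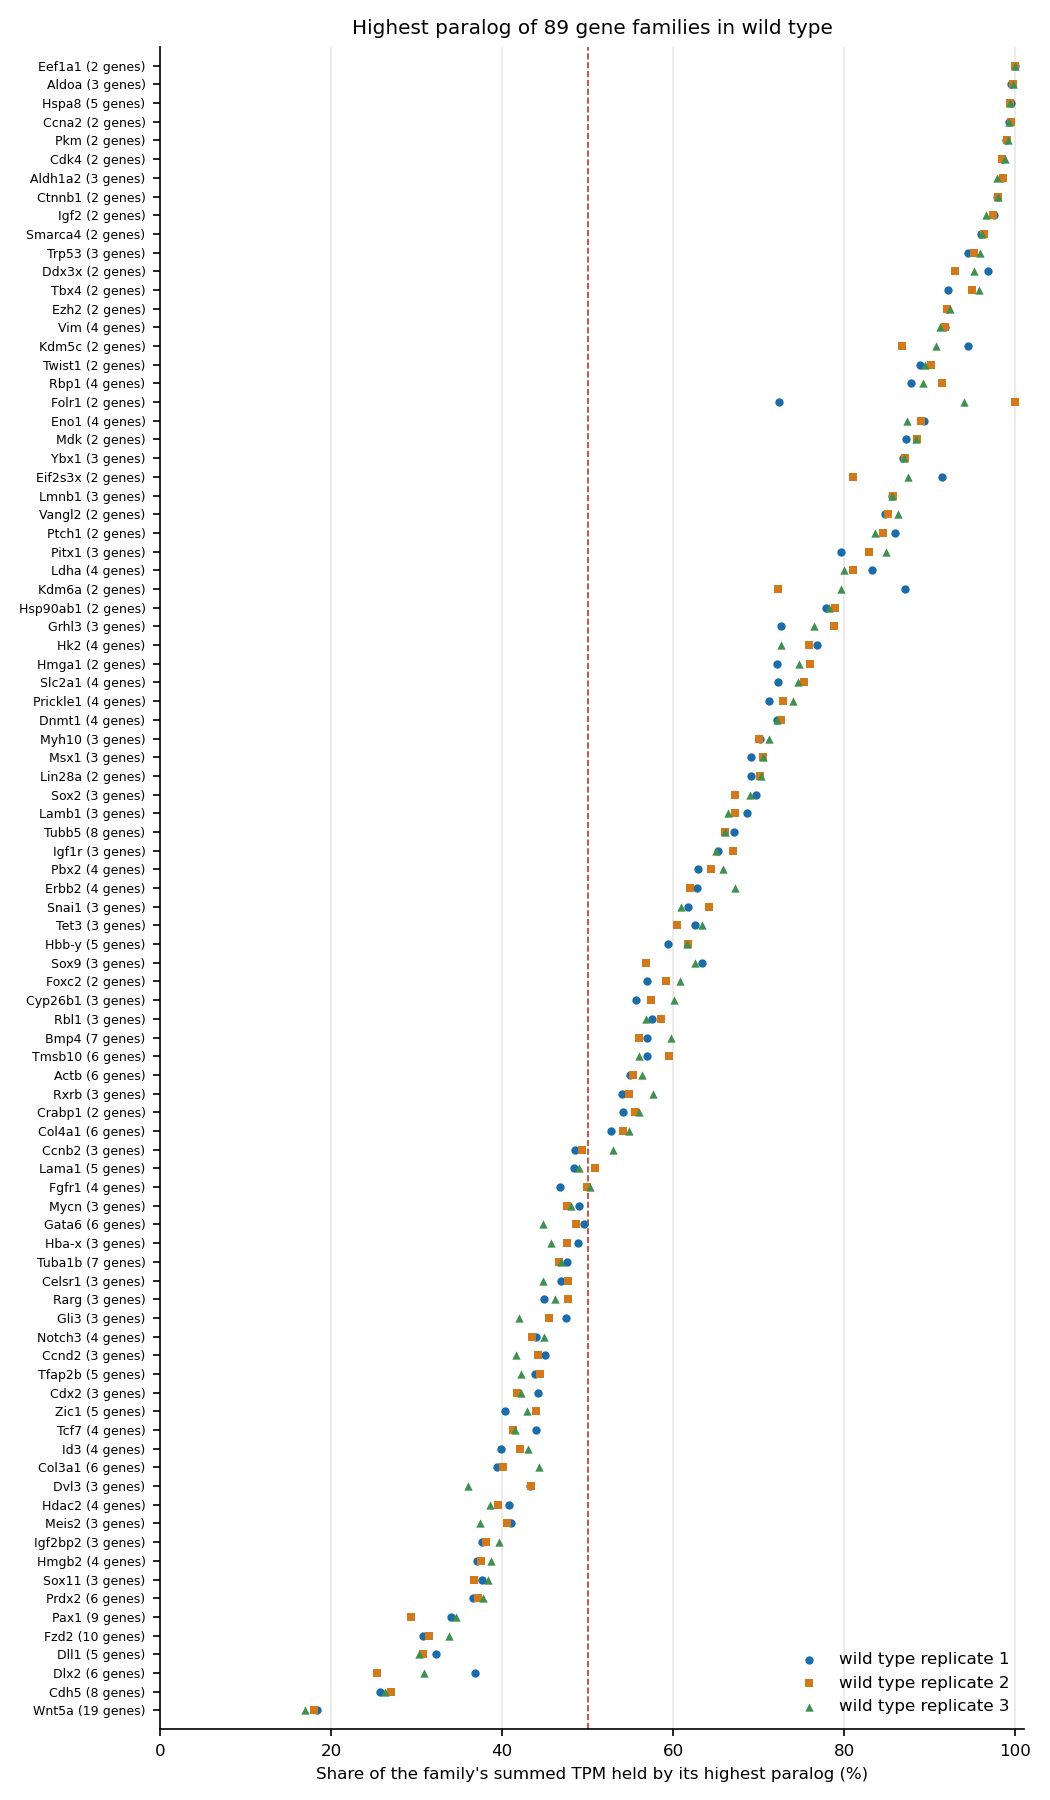
Share of the family's summed TPM held by its highest paralog in each of the 3 libraries, for 89 families ordered by mean share; the dashed line marks 50%. The highest paralog was at or above 50% in every library in 58 families, and Wnt5a, at 17.8% on average, had the lowest share.

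Sensory receptors and other genes of specialised tissues had no reads in large numbers. Of 4342 protein-coding genes with 0 reads (19.8% of the class), 1363 (31.4%) were olfactory or vomeronasal receptors. Of 1134 olfactory receptor genes 1058 had 0 reads and 0 were detected, and of 325 vomeronasal receptor genes 305 had 0 reads and 0 were detected. The same held for 31 of 35 bitter taste receptors, 38 of 42 beta-defensins, 52 of 57 keratin-associated proteins of hair, and 34 of 36 late cornified envelope and small proline-rich genes, with 0 detected in each. Of 26 prolactin family genes 17 had 0 reads and 1 was detected. No gene at 0 reads is shown to be silent beyond the limit that its count allows.

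The sequences near the start sites of abundant and absent genes differed in composition. Promoters were taken from RefSeq (GRCm38.p6) for 16403 of 21927 protein-coding symbols, as 250 bases before and 50 after the annotated start. Genes with 0 reads had a median GC content of 42.3% and a median CpG ratio of 0.134, the number of CG pairs relative to that given by the C and G content (n = 3131). Genes with means of 10 to 100 TPM had 61.7% and 0.795 (n = 5972), and genes of at least 1000 TPM had 59.5% and 0.893 (n = 64). The motif GGGCGG, on either strand in the 250 bases before the start, was in 5.72%, 63.4% and 57.8% of these promoters, and in 44.2% of all. The motif CCAAT, on either strand in the same stretch, was in 36.2%, 37.3% and 45.3%, and in 36.01% of all. In 80 promoters a CCAAT overlapped a GGGCGG or the motif TATAAA. Between genes with 0 reads and genes of 10 to 100 TPM, composition thus differed far more than the share of promoters with CCAAT did. Within detected genes, median GC content stayed between 59.5% and 62.0% in all classes of level. The median CpG ratio rose from 0.644 in detected genes of mean under 10 TPM to 0.893 at 1000 TPM or more.

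TATA-type motifs were searched on the strand of the gene from 45 to 16 bases before the start. TATAAA was in 7.54% of genes with 0 reads, 0.720% of genes of 10 to 100 TPM, 4.69% of genes of at least 1000 TPM (3 of 64) and 2.91% of all. Other spellings, ATAAAA in Hbb-y below and TATAAG in Hba-a1, can overlap it. A promoter with any of the 3 spellings was seen in 13.1%, 1.44%, 12.5% and 5.22%. The reverse of TATAAA was in 0.738% of all. Hbb-y and Hba-a1, which supplied the added spellings, are themselves genes of at least 1000 TPM, so the share of 12.5% is not independent of that choice. The promoters below show genes with and without these motifs, from 45 bases before to 25 after the start, with a TATA-type motif in capitals where the searched stretch held one. Embryonic and adult globins come first, then 2 very abundant genes of all cells, then genes at 0 reads.
Hbb-y: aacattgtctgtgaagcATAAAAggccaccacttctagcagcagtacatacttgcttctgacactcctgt
Hba-x: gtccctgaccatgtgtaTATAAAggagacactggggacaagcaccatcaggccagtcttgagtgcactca
Hba-a1: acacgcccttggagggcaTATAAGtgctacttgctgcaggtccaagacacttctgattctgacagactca
Hbb-bs: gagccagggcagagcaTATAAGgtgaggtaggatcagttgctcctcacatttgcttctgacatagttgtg
Ptma: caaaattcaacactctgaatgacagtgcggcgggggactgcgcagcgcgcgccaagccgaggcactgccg
Rps15: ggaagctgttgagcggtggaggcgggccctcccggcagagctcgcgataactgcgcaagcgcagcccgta
Prm1: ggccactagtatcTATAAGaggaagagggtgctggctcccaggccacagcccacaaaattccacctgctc
Tnp1: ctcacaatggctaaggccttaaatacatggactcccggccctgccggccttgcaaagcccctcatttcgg
Nppa: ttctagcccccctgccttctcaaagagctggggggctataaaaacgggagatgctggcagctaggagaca
Cryaa: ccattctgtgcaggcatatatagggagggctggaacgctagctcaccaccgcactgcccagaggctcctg
Six3: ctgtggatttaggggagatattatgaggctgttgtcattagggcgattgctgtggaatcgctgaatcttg
Otx2: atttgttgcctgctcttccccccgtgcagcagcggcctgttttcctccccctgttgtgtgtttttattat
These lie on GRCm38.p6 at chr7:103853183-103853252 (minus strand), chr11:32276555-32276624 (plus strand), chr11:32283627-32283696 (plus strand), chr7:103827904-103827973 (minus strand), chr1:86526512-86526581 (plus strand), chr10:80292386-80292455 (plus strand), chr16:10796799-10796868 (minus strand), chr1:73015875-73015944 (minus strand), chr4:148000677-148000746 (plus strand), chr17:31677886-31677955 (plus strand), chr17:85620789-85620858 (plus strand) and chr14:48667620-48667689 (minus strand), in the order printed. The 4 globins and the protamine gene Prm1 of spermatids held a motif at about the same distance from the start, although Hbb-y was at 12216 TPM and Prm1 at 0 reads. Ptma and the ribosomal protein gene Rps15 held none of the 3 in the searched stretch, nor did the other 5 genes at 0 reads. The heart gene Nppa has the letters TATAAA nearer to its start, outside that stretch. The 300-base promoters also differed: Ptma had a GC content of 68.0% and a CpG ratio of 0.821, against 43.3% and 0.0714 for Hbb-y. A match is a description of letters, not of a bound site.

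Spread between libraries was small for most genes. The common biological coefficient of variation from edgeR, the spread between libraries beyond counting error, was 0.0987. It was 0.0649 as the median gene-wise value from DESeq2 and 0.0675 without replicate 3. The median coefficient of variation of TPM was 14.7% in 5238 detected genes of mean under 10 TPM, 7.85% in 8287 genes of 10 to 100 TPM, 5.62% in 1695 genes of 100 to 1000 TPM and 5.91% in 116 genes above. Counting error alone would give medians of 8.62%, 2.53%, 1.27% and 0.540% in the same classes. Among the steadiest genes of at least 50 TPM, Cdc42se1 was at 77.7, 77.7 and 77.6. Hmgb1, an abundant chromatin protein, was at 621, 624 and 620.4.

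Of 10101 genes of mean 10 TPM or more, 6795 (67.3%) varied by less than 10%. In 12 (0.119%) the coefficient of variation was 50% or more, and this number was 24 without replicate 2, 17 without replicate 1 and 16 without replicate 3. Lowering the required mean to 1 TPM gave 465. Xist, the RNA that coats the inactive X chromosome of female cells, was at 178, 0.283 and 58.8 TPM, from 32521, 58 and 15888 reads. Gm27927, which lies within Xist on the same strand, followed it at 81.1, 0 and 13.2. Both were high in replicate 1, intermediate in replicate 3 and at or near 0 in replicate 2.

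Genes of the Y chromosome were present in all 3 libraries. The 11 detected on it and the rest of its genes together held 0.0431%, 0.0560% and 0.0576% of TPM, highest in replicate 3. Ddx3y was at 21.1, 37.5 and 21.9. Eif2s3y was at 25.9, 48.4 and 30.8. Kdm5d was at 6.39, 14.3 and 8.81 and Uty at 5.38, 10.2 and 6.37. Each of these 4 was highest in replicate 2 and lowest in replicate 1. Of their X-linked partners, Ddx3x was at 627, 491 and 428. Eif2s3x was at 276, 207 and 213. Ddx3x, Eif2s3x, Kdm5c and Kdm6a were all highest in replicate 1. The labels do not state how many male and female embryos a pool held, and the part of sex in these values was not tested.

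The 12 most variable genes also included processed pseudogenes, protein-coding genes and snoRNA genes. The processed pseudogene Rpl30-ps9 was at 118, 10.9 and 54.3. Rpl30-ps10 was at 95.8, 10.8 and 48.4. Rps3a3 was at 152, 609.5 and 575. The first 2 were lowest in replicate 2, as were Gm4322 and Gm12191, and Rps3a3 was lowest in replicate 1. Gpr50 was at 25.4, 10.4 and 9.31, highest in replicate 1. Gm20479 (14.97, 17.3 and 0.0248), AL731706.1 (15.2, 15.6 and 2.75) and the snoRNA gene Snord98 (14.01, 14.96 and 1.95) were lowest in replicate 3. Below this limit, Col1a1, the collagen of connective tissue and bone, was at 162, 101.1 and 72.0, highest in replicate 1 and lowest in replicate 3. The medians of longer genes had the same order, with a median log2 difference of up to -0.30. The part of length in the Col1a1 values was not tested.

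**Figure D5:**
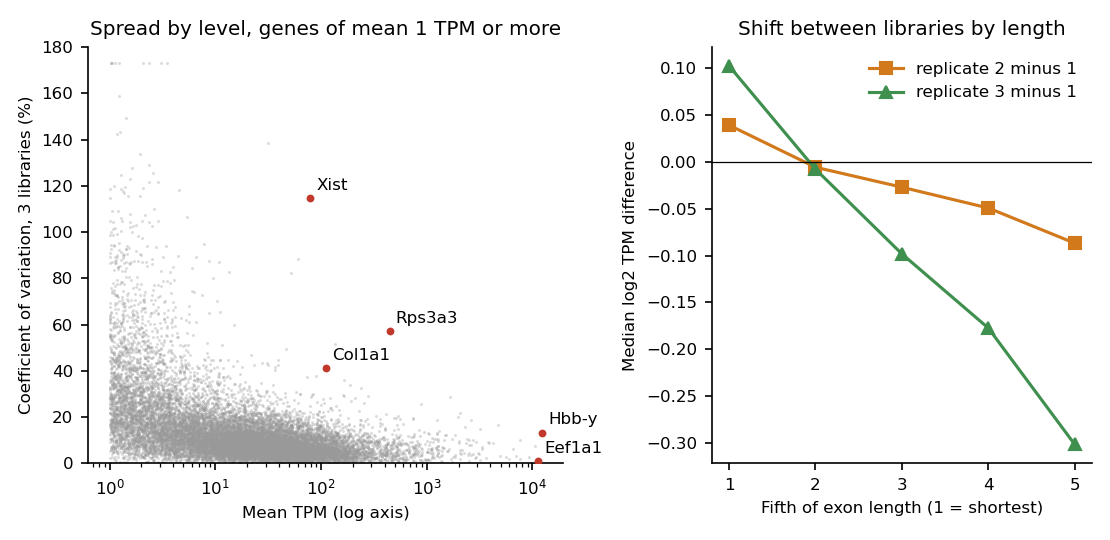
Left, coefficient of variation of TPM over 3 libraries against mean TPM (log axis), 1 point per gene of mean 1 TPM or more. Right, median log2 TPM difference of replicates 2 and 3 from replicate 1 by quintile of exon length, which runs from 0.10 to -0.30 for replicate 3 and from 0.04 to -0.09 for replicate 2.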

How the data were processed

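The 3 wild type libraries of the caudal region were read from a deposited table of gene values. Per the submitters' processing notes, reads were trimmed with Trimmomatic 0.39 and aligned with STAR 2.7.10b to mm10. Neither the labels nor these notes name the program that counted reads, its setting for strand or the release of its annotation. The values were deposited in 2 units: the authors' log2 of TPM, with TPM of 1 or less shown as 0, and expected counts of reads per gene that the authors left without normalisation. All 24 value columns were matched to libraries by name, and 0 were left unmatched.

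TPM of 1 or less were rebuilt from the expected counts, since the ratio of count to TPM was a product of a gene factor and a library factor, with deviations of at most 1.6e-06 (log2). For genes never above 1 TPM in these libraries the factor came from GENCODE vM21 exon lengths, which matched the table's factors within 0.1% for 91.1% of 15336 genes. Of the IDs 105 were not in that release, and 34 genes with reads had no length. In 4 genes a rebuilt value above 1 was held at 1.

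No groups were compared, so there is no p-value, and the precision of a mean rests on 3 pooled libraries of 34266067 to 46464596 reads. The common biological coefficient of variation was estimated with edgeR 4.0.16 (R 4.3.3) on rounded expected counts of detected genes with TMM scaling. On simulated data it was recovered, and DESeq2 1.42.0 was an alternative. Other values came from Python 3.11.15 with numpy 2.4.6 and pandas 2.3.3, and figures from matplotlib 3.10.9. Gene positions are on mm10 as deposited, and promoters are those of RefSeq.

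The 43 marker lists and 89 families were written from general knowledge, and members and lists were chosen with earlier results of these data known. Some list members are not reported here by name. Named genes are list and family members, the 25 genes of highest mean TPM, the 5 leading noncoding genes among the 500 highest, the 12 most variable genes of mean at least 10 TPM and the 12 least variable of at least 50 TPM. Alternatives tried were other thresholds, units, scalings, pseudocounts and gene sets, and each library left out in turn.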

Additional observations from a re-analysis of the deposited data

How the results depend on the processing

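The number of detected genes (15336) lay between 11676 and 16833 under other thresholds, units and gene sets, and the number of dominant families (58) between 40 and 62. The share of TPM held by the 100 highest genes (26.2%) was 15.8% in expected counts, 22.9% without globin and ribosomal protein genes and their copies, and 24.95% without all pseudogenes, an alternative chosen after seeing the data. It was 25.6% to 26.6% when each library was left out. Tissue lists with every defining marker detected (15) numbered 7 at 5 TPM and 15 to 17 with a library left out. The common coefficient of variation (0.0987) was 0.0649 from DESeq2, and between 0.0675 without replicate 3 and 0.124 without replicate 2. Variable genes (12) numbered 465 at a mean of 1 TPM, and 16 to 24 with a library left out. The mean correlation of libraries (0.995) was 0.985 at a pseudocount of 0.1, 0.997 at 10 and 0.992 over detected genes, and 0.994 to 0.995 with a library left out. Of 258 list counts recomputed under other thresholds or with a library left out, 14 moved by over 1.5 times, all in lists with few or low members. No paired analysis was possible because no groups were compared and no result came from a test. Counting error was largest in detected genes of mean under 10 TPM, with a median of 8.62% against a median spread of 14.7%.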

Other observations

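Among noncoding classes, the share of genes detected was far under that of protein-coding genes. It was 297 of 5307 lincRNA genes (5.596%), 233 of 2727 antisense RNA genes (8.54%), 124 of 1507 snoRNA genes (8.23%) and 83 of 2202 miRNA genes (3.77%). The library kit selects polyadenylated RNA, so mature small RNAs were not measured. Several imprinted noncoding RNAs were detected beside H19 and Meg3. Rian, of the Dlk1 and Meg3 region, was at 106, 95.3 and 85.0 TPM in replicates 1, 2 and 3, the order and unit of all values here. Airn, the antisense RNA of the Igf2r region, was at 22.1, 20.7 and 14.3, and Kcnq1ot1 at 1.39, 1.18 and 1.04. Igf2r itself, the receptor that clears Igf2, was at 175, 159 and 115. Rian, Airn, Kcnq1ot1 and Igf2r were all lowest in replicate 3.

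Growth regulators of the MYC and ID families were also detected. Mycn was at 116, 110.3 and 100.7 and Myc at 62.8, 63.3 and 55.1. Mycn was above Myc in each library. Of the ID proteins, which block basic helix-loop-helix factors, Id3 was at 229, 242 and 268 and Id1 at 173, 168 and 182. The oncofetal RNA-binding genes Igf2bp2 (164, 159 and 145) and Igf2bp1 (158, 149 and 124) overlapped in range, with Igf2bp2 the higher within each library. Hmga1 and Hmga2, chromatin proteins of embryonic and cycling cells, had means of 1425 ± 96.1 and 495 ± 48.8 (SD, n = 3). Mdk, the retinoic acid responsive growth factor midkine, was at 1973, 2064 and 2211, and its relative Ptn, pleiotrophin, at 289, 268 and 289. Crabp1 and Crabp2, which bind retinoic acid in the cytoplasm, had means of 954 ± 78.1 and 772 ± 35.7 (SD, n = 3).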
